A study of Rattus norvegicus with 30 samples.

Results

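The MiT genes encode a small family of basic helix-loop-helix leucine zipper transcription factors, and 3 of them, Tfeb, Tfe3 and Mitf, were followed here through serum starvation of rat fibroblasts. They were taken by gene symbol and are 3 of the 17353 symbols in the expression table. Earlier results of these data were known when these genes, and the lists and motifs below, were chosen. The remaining family member, Tfec, was listed at 0 in all 30 libraries and is not described further. The cells were REF rat embryonic fibroblasts, labelled as not transformed, a culture that leaves the cell cycle when serum is removed. A control group was kept without starvation, and 9 groups were starved of serum for 2, 3, 4, 6, 8, 10, 12, 14 or 16 days. No genetic change or drug is named for any group, and each group held 3 libraries that the series describes as biological replicates. The title of the series places these cells on a scale of quiescence depth and names the lysosome as its regulator. The cells come from a single line, and the tables hold RNA from whole cultures, so fewer cells of a type and less RNA per cell cannot be told apart.

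MiT proteins bind DNA as pairs, with themselves or with each other, at a motif named CLEAR in front of genes for lysosomal enzymes, the proton pump and autophagy. In fed cells, active Rag GTPases bring TFEB and TFE3 to the lysosome, where the kinase complex mTORC1 phosphorylates them and 14-3-3 proteins then hold them in the cytoplasm. Loss of that signal, or calcium release that activates calcineurin, lets them enter the nucleus, so that much of their control lies in protein location, which RNA levels do not show. MITF is the master regulator of pigment cells and also acts in osteoclasts, and its gene is read from several promoters whose transcripts are summed in a gene-level value.

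Levels are FPKM, a count of sequenced fragments divided by transcript length and library size, so genes can be set beside each other per unit of length. Changes are differences of log2(FPKM + 1), which understate the change of a gene as low as Mitf. Tests came from limma over the 8940 genes whose mean reached 1 FPKM, with Benjamini-Hochberg adjusted p and a threshold of 0.05. Library sums lay between 582501 and 785072 FPKM. In day 3 replicate 3 and day 4 replicate 3 the 10 highest genes held 16.0% and 17.9% of the sum, against 9.14% to 15.8% in the other libraries, and rows of microRNA genes, Mir214 and Mir3120, led them. Mir3120 was also the highest row in day 2 replicates 2 and 3, day 3 replicate 2, day 12 replicate 3 and day 16 replicate 2. The number of calls on the MiT genes was 13 with and without day 3 replicate 3 and day 4 replicate 3. The other libraries led by Mir3120 were not left out as a set.

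Tfe3 was the highest of the MiT genes in each of the 10 groups, and it was above control at day 2 and again from day 6 on. On days 3 and 4 it did not pass, with changes of 0.16 and 0.17 and limma adjusted p values of 0.0807 and 0.0625. This gap depended on the processing. Tfe3 passed on 9 of 9 days under upper quartile scaling and on 8 under quantile normalization, but on 6 without replicate 2 or replicate 3. In control its levels were 13.0, 11.5 and 12.2 FPKM in replicates 1, 2 and 3. After 2 days they were 16.0, 14.2 and 14.8 FPKM, after 3 days 14.6, 12.7 and 13.9 FPKM, and after 4 days 13.5, 13.2 and 14.8 FPKM. The day 2 libraries all stood above the controls, and the day 3 libraries overlapped them. Day 6 gave 14.9, 13.5 and 14.6 FPKM, day 8 gave 16.0, 15.1 and 17.5 FPKM, and day 10 gave 18.5, 17.0 and 16.7 FPKM. Day 12 gave 16.6, 17.0 and 17.6 FPKM, day 14 gave 17.7, 16.3 and 16.6 FPKM, and day 16 gave 15.9, 17.9 and 17.3 FPKM. From day 8 on, each library lay above each control library, and 26 of the 27 starved libraries did so over the whole course.

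Tfe3 was higher than control by 0.28 ± 0.08 (SE, n = 3 libraries a group) on the log2 scale at day 2, with a limma adjusted p of 0.00338. At day 16 it was higher by 0.45 ± 0.08, with a limma adjusted p of 1.44e-05, and its mean FPKM was 1.40 times that of control. The highest group mean was at day 10, 17.4 ± 0.952 FPKM (SD, n = 3), against 12.2 ± 0.768 FPKM (SD, n = 3) in control. Over days 2 to 16 a straight line gave a rise of 0.31 ± 0.06 in 14 days, with a limma adjusted p of 0.00011. When each library was rescaled to the same FPKM sum, that rise was 0.19 and no longer passed, with a limma adjusted p of 0.0673.

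Mitf was the lowest of the MiT genes and rose by the largest factor of the group means. Its control levels were 0.763, 1.49 and 1.45 FPKM in replicates 1, 2 and 3. Day 2 gave 1.16, 2.05 and 1.95 FPKM, day 3 gave 1.96, 1.90 and 1.38 FPKM, and day 4 gave 1.47, 1.62 and 2.29 FPKM. These early groups each overlapped control. Day 6 gave 1.5, 2.36 and 2.72 FPKM, day 8 gave 2.1, 2.26 and 2.31 FPKM, and day 10 gave 2.25, 2.15 and 2.13 FPKM. Day 12 gave 1.58, 2.80 and 1.99 FPKM, day 14 gave 2.27, 3.15 and 3.92 FPKM, and day 16 gave 2.30, 3.12 and 3.25 FPKM. From day 6 on no library fell within the control range, although at day 6 and day 12 the lowest library was just above it. Replicate 1 was the lowest of the group in 8 of 10 groups, control included.

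At day 16 Mitf was higher than control by 0.81 ± 0.19 (SE, n = 3 libraries a group) on the log2 scale, with a limma adjusted p of 0.000472. Its mean FPKM was then 2.34 times the control mean, and at day 14 it was 2.52 times. At day 2 the difference was 0.28 ± 0.19, with a limma adjusted p of 0.193 and a 95% interval from -0.10 to 0.67, so a change was not shown at the entry into starvation. The line over days 2 to 16 rose by 0.53 ± 0.12 in 14 days, with a limma adjusted p of 0.000667.

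Tfeb, the best known regulator of lysosome genes, did not pass a test against control on any day. Its control levels were close together at 6.56, 6.06 and 6.70 FPKM in replicates 1, 2 and 3. Day 2 gave 8.68, 8.74 and 7.19 FPKM, day 3 gave 7.50, 7.07 and 8.44 FPKM, and day 4 gave 7.08, 8.24 and 4.95 FPKM. All libraries of days 2 and 3 were above control, and at day 4 they lay on both sides of it. Day 6 gave 5.19, 6.22 and 5.79 FPKM, day 8 gave 6.21, 6.48 and 5.35 FPKM, and day 10 gave 6.77, 4.64 and 6.90 FPKM. Day 12 gave 8.58, 8.40 and 5.83 FPKM, day 14 gave 6.93, 5.32 and 8.49 FPKM, and day 16 gave 7.71, 8.16 and 5.84 FPKM. From day 12 the groups held both high and low libraries, and of all 27 starved libraries 16 lay above and 8 below the whole control range.

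The change of Tfeb was 0.30 ± 0.17 (SE, n = 3 libraries a group) at day 2, with a limma adjusted p of 0.124 and a 95% interval from -0.04 to 0.65. It was 0.14 ± 0.17 at day 16, with a limma adjusted p of 0.489 and an interval from -0.21 to 0.48. Over days 2 to 16 the line changed by -0.06 ± 0.14 in 14 days, with a limma adjusted p of 0.721 and an interval from -0.34 to 0.22. The SD of Tfeb was 0.337 FPKM in control and 1.67 FPKM at day 4, the widest group. Without replicate 3 in every group, day 2 and day 12 passed, with changes of 0.41 and 0.38 and limma adjusted p values of 0.0394 and 0.0491.

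**Figure D1:**
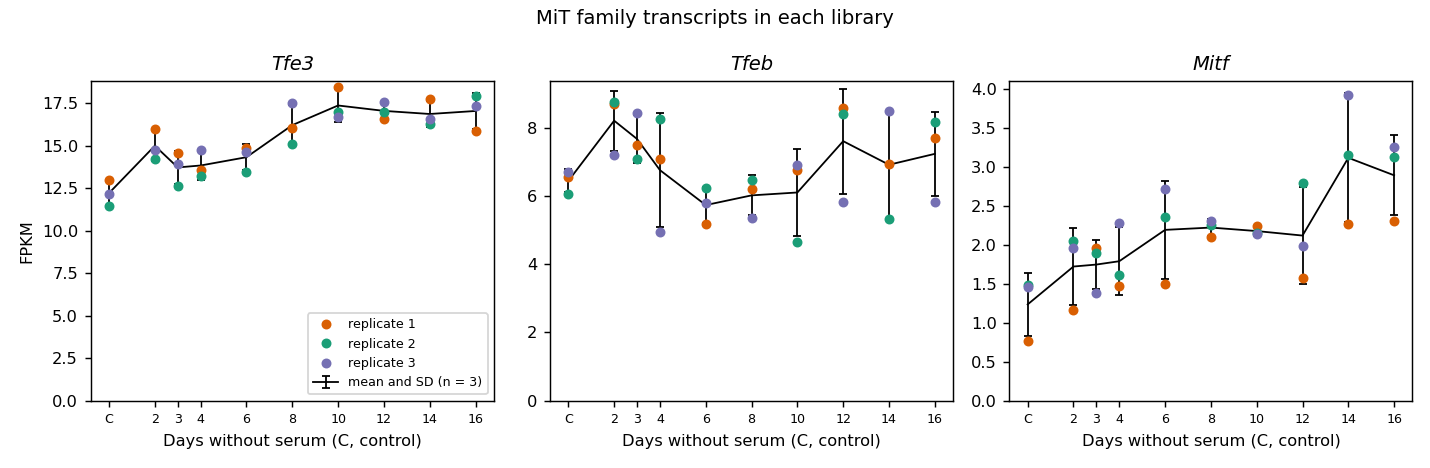
FPKM of Tfe3, Tfeb and Mitf (y axis, from 0, a scale for each panel) against days without serum (x axis, C is the unstarved control). Points are libraries coloured by replicate number, and the black line with bars gives the mean and SD of 3. Tfe3 climbs from 12.2 to about 17 FPKM, Mitf climbs from 1.24 to 2.89 FPKM, and Tfeb spreads around its control level of 6.44 FPKM.

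Over the 9 starved days, Tfe3 passed as higher than control on 7 days (days 2, 6, 8, 10, 12, 14 and 16), Mitf on 6 days (days 6 to 16) and Tfeb on 0 days. Such calls are common in this series. Of all genes tested, 30% were called higher at day 2, 31.6% at day 3, 30.8% at day 4, 32.9% at day 6 and 33.4% at day 8. The share was 33.2% at day 10, 31.5% at day 12, 31.4% at day 14 and 32.4% at day 16. Against these shares of about 30%, the MiT genes had 13 calls among 27 gene and day pairs, which share their control libraries. Without replicate 2 in every group, the calls on Mitf fell to 2 days and those on Tfe3 to 6 days, and at days 6 to 12 the change of Mitf was between 0.42 and 0.62.

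All 3 libraries of a day exceeded all 3 controls for Tfe3 on 8 days, all but day 3, for Mitf on 6 days and for Tfeb on 2 days. Of all genes tested, 30.6% did so at day 2, 34.4% at day 3, 31% at day 4, 35% at day 6 and 35.5% at day 8. At the later days the share was 34.6% at day 10, 32.1% at day 12, 32.4% at day 14 and 34.1% at day 16. With 3 libraries against 3, the smallest exact permutation p of a single gene is 0.1, so these counts are descriptive.

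**Figure D2:**
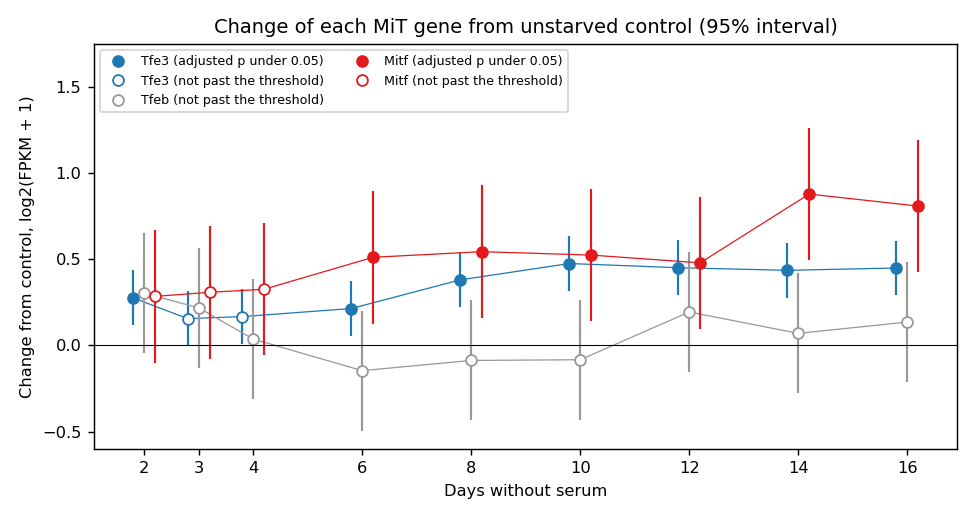
Change of each MiT gene from control in log2(FPKM + 1) (y axis) against days without serum (x axis); vertical lines are 95% intervals from limma, and filled points have an adjusted p under 0.05. Tfe3 is filled on 7 of 9 days and Mitf from day 6, while the Tfeb interval crosses 0 on each day.

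A test of any difference among the 10 groups passed for Tfe3, with a limma adjusted p of 1.88e-05, and for Mitf, with a limma adjusted p of 0.00583. It did not pass for Tfeb, with a limma adjusted p of 0.211. This test passed for 81.9% of all genes. The call on Mitf was lost without replicate 2 (adjusted p 0.122) or without replicate 3 (adjusted p 0.109), and Tfeb passed without replicate 3 (adjusted p 0.0265).

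Within the course the steps were small. From day 2 to day 8 no MiT gene passed: Tfeb changed by -0.39 ± 0.17, with a limma adjusted p of 0.0754, Tfe3 by 0.10 and Mitf by 0.26. Of all genes, 17.4% rose and 18.4% fell in that interval. From day 8 to day 16 the changes were 0.22 for Tfeb, 0.07 for Tfe3 and 0.26 for Mitf, and none passed, against 15.8% of all genes called higher and 14.4% called lower. The limma adjusted p of the 6 values lay between 0.0754 and 0.536. From control to day 16, 2 of the 3 MiT genes rose, against 32.4% of all genes, and 35% of all genes fell. On the line over days 2 to 16 the same 2 genes, Tfe3 and Mitf, rose, against 26.6% of all genes that rose and 28.9% that fell.

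Ordered by mean FPKM, Tfe3 ran from control through days 3, 4, 6, 2, 8, 14, 16 and 12 to day 10. Mitf ran from control through days 2, 3, 4, 12, 10, 6, 8 and 16 to day 14. Tfeb had a different order, from day 6 through days 8, 10, control, 4, 14, 16, 12 and 3 to day 2. For each gene, the ranges of neighbouring groups in these orders overlapped in every case, so no single step in an order exceeded the spread between libraries.

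The summed level of MiT transcripts was higher in each starved group than in control, as a description without a test. The 3 genes summed to 19.9 ± 0.755 FPKM (SD, n = 3) in control, 24.9 ± 0.971 FPKM at day 2, 22.2 ± 0.795 FPKM at day 6 and 27.2 ± 1.78 FPKM at day 16. Tfe3 made up 61.4% of the sum in control, 67.8% at day 10 and 62.8% at day 16. The share of Tfeb was 32.4% in control, 32.9% at day 2, 23.7% at day 10 and 26.6% at day 16. Mitf made up 6.25% in control and 10.6% at day 16. The ratio of Tfe3 to Tfeb within a library was 1.90 ± 0.0827 in control, 2.93 ± 0.644 at day 10 and 2.41 ± 0.489 at day 16 (SD, n = 3).

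**Figure D3:**
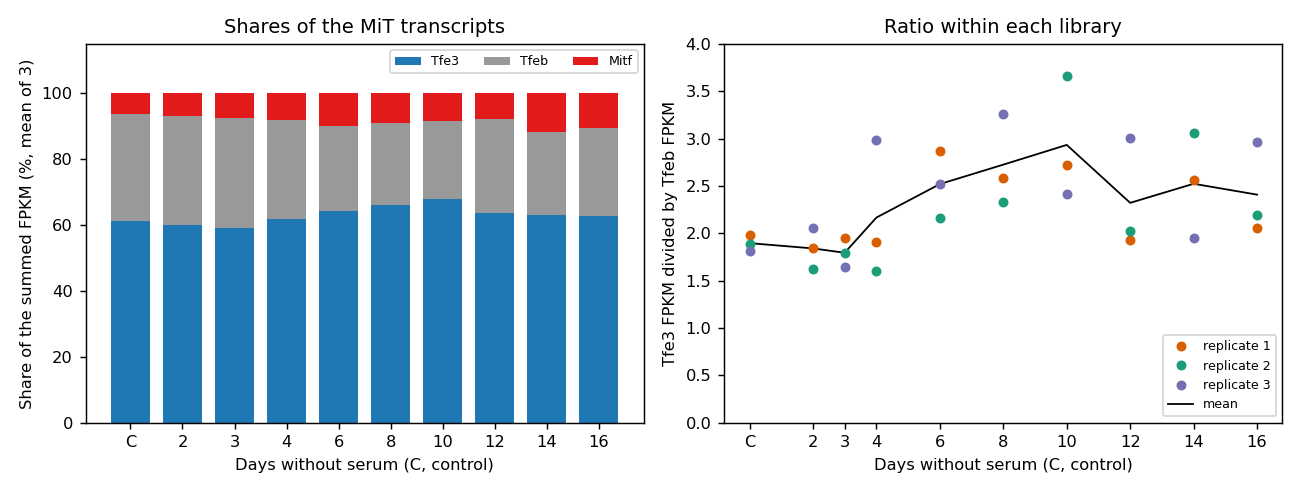
Left, share of each MiT gene in their summed FPKM (y axis, percent, mean of 3 libraries) by days without serum (x axis). Right, Tfe3 FPKM divided by Tfeb FPKM in each library (points coloured by replicate number) with the group mean (line), which runs from 1.90 in control to 2.93 at day 10.

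The differences between the genes were tested within libraries, over 3 pairs. Over days 2 to 16, Tfe3 gained 0.37 on Tfeb in 14 days on the log2 scale, with a permutation p of 0.0251 (adjusted p 0.0377 over the pairs). Mitf gained 0.59 on Tfeb, with a permutation p of 0.00661 (adjusted p 0.0198). The value for Mitf on Tfe3 was 0.22, with a permutation p of 0.125 (adjusted p 0.125). It depended on the pseudocount, at 0.41 with 0.1 (adjusted permutation p 0.0360) and -0.011 with 5 (adjusted permutation p 0.882). The gain of Tfe3 on Tfeb missed the threshold when any replicate number was left out, with adjusted permutation p values from 0.0569 to 0.198, and that of Mitf on Tfeb missed it without replicate 2 or 3. Between the 3 control and the 27 starved libraries none of the pairs passed the exact permutation test over 4060 arrangements. Tfe3 was above Tfeb by 0.83 in control and 1.09 when starved, a difference of 0.26 with an exact adjusted p of 0.218. The same difference was 0.45 for Mitf relative to Tfeb (exact adjusted p 0.213) and 0.18 for Mitf relative to Tfe3 (exact adjusted p 0.246).

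Likeness of course was measured by Pearson's r over the 10 group means of log2(FPKM + 1), as a description in which the points share libraries. Tfe3 and Mitf had an r of 0.82, Tfeb and Tfe3 0.03, and Tfeb and Mitf -0.10. Among 7175 genes that averaged 5 FPKM or more, the genes closest to Tfeb were Chrd (0.909), a secreted antagonist of bone morphogenetic proteins, Klhdc8b (0.896), the sugar transporter gene Slc2a8 (0.887), Oplah (0.880) and Copz2 (0.875). Chrd went from 10.2 FPKM in control to 21.8 FPKM at day 2 and 7.37 FPKM at day 8. Closest to Tfe3 were Nckipsd (0.974), the ceramide synthase gene Cers1 (0.971), Uap1l1 (0.970), Pced1a (0.970) and the Wnt co-receptor gene Lrp5 (0.969). Closest to Mitf were Med20 (0.969), a subunit of the Mediator complex, the kinase gene Nek6 (0.965), Ap3s1 (0.965), a subunit of the AP-3 sorting adaptor, St3gal3 (0.964) and Scara5 (0.962). None of these 15 genes is a family member, and with so many genes compared over 10 points, high values of r are common.

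The regulators that hold MiT proteins at the lysosome were followed from a list of Rag GTPases, the Ragulator scaffold and folliculin, the activator of RagC and RagD that makes them present TFEB and TFE3 to mTORC1. At day 2, 7 of the 12 tested genes rose and 1 fell, when 30% of all genes rose and 30.7% fell. At day 16, 10 rose and 1 fell against control, when 32.4% of all genes rose and 35% fell (median change 0.72, against -0.02 over all genes). Flcn, encoding folliculin, went from 9.42 ± 1.2 FPKM in control to 16.3 ± 1.10 at day 2, 32.7 ± 1.37 at day 8 and 30.4 ± 1.58 FPKM at day 16 (SD, n = 3). Its change at day 16 was 1.59 ± 0.10 on the log2 scale, with a limma adjusted p of 4.05e-13. The folliculin partner genes also rose by day 16, Fnip1 by 0.93 and Fnip2 by 1.43. They differed in timing: Fnip2 was already up by 1.09 at day 2, with a limma adjusted p of 8.6e-06, while Fnip1 had changed by -0.01, with a limma adjusted p of 0.945. That difference between the partners was not tested. Rragc rose by 0.71 at day 16, to 71.8 ± 5.49 FPKM from 43.4 ± 0.629 FPKM (SD, n = 3).

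Rragd, encoding RagD and itself a known MiT target, took another path. It went from 1.69 ± 0.520 FPKM in control to 0.764 ± 0.145 at day 2, 1.26 ± 0.764 at day 8 and 3.24 ± 0.307 FPKM at day 16 (SD, n = 3). Its rise over days 2 to 16 was 1.44 ± 0.15, with a limma adjusted p of 2.73e-09. Its fall at day 2 was -0.59, with a limma adjusted p of 0.0204. That call was lost under 4 alternatives, with limma adjusted p values up to 0.104. Among them were leaving out control replicate 1 (0.0900), control replicate 3 (0.0702) or day 2 replicate 3 (0.0610). The gene that fell at day 16 was Slc38a9, an arginine sensor at the lysosome, with a change of -0.61 ± 0.18 and a limma adjusted p of 0.00468, which was lost with replicates 2 and 3 only (0.0952).

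Genes of mTORC1 and its TSC and GATOR regulators were called about as often as all genes, with 5 of 13 higher and 4 lower at day 16 (median change 0.04), against 32.4% and 35% of all genes. Mtor itself fell by 0.42 ± 0.12 at day 16, with a limma adjusted p of 0.00458. Among genes of phosphatases, kinases and nuclear export that act on MiT proteins, 4 of 15 rose and 6 fell at day 16, also near the 32.4% and 35% of all genes. Mcoln1, the lysosomal calcium channel upstream of calcineurin, rose by 1.55 ± 0.09, with a limma adjusted p of 1.02e-13. Xpo1, the exportin that carries TFEB out of the nucleus, fell by 1.5 ± 0.10, with a limma adjusted p of 7.25e-13, from 62.4 ± 7.43 FPKM in control to 21.4 ± 0.626 FPKM (SD, n = 3). Of 6 tested 14-3-3 genes, 5 fell and 0 rose at day 16 (median change -0.86), when 35% of all genes fell. Ywhae, the most changed of them by p, went from 535.5 ± 7.06 to 234.6 ± 12.6 FPKM (SD, n = 3). Under upper quartile scaling and quantile normalization 5 were called lower and 1 was called higher.

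The targets of MiT proteins are known through the CLEAR motif and, for MITF, the M-box. In 300 bases of promoter, from 250 before to 50 after the RefSeq start (assembly GRCr8, another build than the rn6 of the expression table), CACGTG on either strand occurred in 6.42% of 33469 promoters. The longer palindrome TCACGTGA, which contains it, occurred in 0.777% and the M-box TCATGTG, read on either strand, in 3.56%. Among the promoters of tested genes the shares were 9.84%, 1.79% and 1.91%, so the core and the palindrome were more common and the M-box less common there. The palindrome stood in 6 of 24 promoters of the lysosomal target list and in 8 of 22 of the autophagy and trafficking list. It stood in 2 of 11 of the vacuolar ATPase list, 0 of 9 of the feedback and stress list and 0 of 13 of the melanocyte list. The M-box stood in 5 of 13 of the melanocyte list and in 4 of 9 of the feedback and stress list. It also stood in 5 of 24 of the lysosomal, 2 of 11 of the vacuolar ATPase and 1 of 22 of the autophagy and trafficking list. These lists were compiled by others in part from such motifs, so the shares are not independent of them. Named targets that fell or were not tested also held matches, which are not shown. Hps5 held TCACGTGA, Cd63 held CACGTG and the M-box, and Ppargc1a held the M-box. The windows below show the match in capitals, on the strand of the gene, for some targets that rose by day 16. Tyr, whose M-box is well known and which was near 0 here, is also shown.
Ctsd, chr1:206968814-206968843, minus strand: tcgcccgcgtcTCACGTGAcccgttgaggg
Lamp1, chr16:83075111-83075140, minus strand: agaccctcggcTCACGTGAccggcgggcgc
Mcoln1, chr12:6358250-6358279, plus strand: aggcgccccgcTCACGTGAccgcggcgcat
Sumf1, chr4:142716722-142716751, minus strand: aacacctcaggTCACGTGAcgccgtggatc
Fnip1, chr10:39068367-39068396, plus strand: tcagtttgctgcCACGTGatgcggctcgtc
Gpnmb, chr4:79341095-79341124, plus strand: gcttaaaacatCACATGAtctccctctggc
Mlana, chr1:236882860-236882889, plus strand: attacattaggCACATGAcaaaaacacttg
Tyr, chr1:150622960-150622989, minus strand: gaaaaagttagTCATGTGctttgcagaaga
The matches in Ctsd, Lamp1, Mcoln1 and Sumf1 are the same palindrome, and that in Fnip1 holds its core alone. In Mlana and Gpnmb the M-box lies on the strand opposite to the gene. None of these motifs occurred in the promoter entries of Tfeb, Tfe3, Mitf or Tfec, which says only that the letters are not in these windows.

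Of 125 tested genes with TCACGTGA, 54 (43.2%) were higher and 32 (25.6%) lower at day 16 than in control, with a median change of 0.19. Over all 6972 tested genes with a promoter entry, 32.0% were higher and 35.9% lower, with a median of -0.03. At day 8 against day 2, 27.2% of the 125 rose and 9.6% fell, against 17.4% and 18.3% of all genes with an entry. At day 16 against day 8, 16% rose and 16.8% fell, near the 15.6% and 14.7% of all genes with an entry. Of 686 genes with the CACGTG core, 36.6% were higher and 34.4% lower at day 16 than in control, with a median of -0.01. Of 133 genes with the M-box, 36.8% were higher and 29.3% lower at day 16 than in control, and 30.8% rose and 15.8% fell from day 2 to day 8. Of 40 genes with the palindrome extended by a matching base on each side, 40% were higher and 25% lower at day 16 than in control. From day 2 to day 8, 17.5% of these 40 rose and 7.5% fell, but from day 8 to day 16 7.5% rose and 22.5% fell. On the line over days 2 to 16, 30% of the 40 rose and 32.5% fell. On the same line 35.2% of the 125 rose and 23.2% fell, against 26.1% and 29.3% of all genes with an entry. These are counts without a test, and genes with either palindrome are also counted under the core.

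Most known targets of MiT proteins rose. Of 27 tested lysosomal targets, 23 rose and 1 fell at day 2, when 30% of all genes rose and 30.7% fell. At day 16, 23 rose and 1 fell (median change 1.55), against 32.4% and 35% of all genes, which is also the background of the counts at day 16 that follow. Ctsd, encoding the protease cathepsin D, rose by 2.34 ± 0.06 at day 16, with a limma adjusted p of 1.61e-21. Lamp1, a major lysosomal membrane protein, rose by 1.80 ± 0.08, with a limma adjusted p of 5.99e-16. The exception was Cd63, a tetraspanin of late endosomes, which fell by 0.66 ± 0.19, with a limma adjusted p of 0.004. All 14 tested genes of the vacuolar ATPase, the proton pump, rose by day 16 (median change 0.92), against 7 that rose and 1 that fell at day 2. Of 20 autophagy and trafficking targets, 13 rose and 2 fell at day 16 (median change 0.53). Sqstm1, encoding the autophagy receptor p62, rose by 1.19 ± 0.06, with a limma adjusted p of 3.74e-15. The 2 of this list that fell were Hps5 and Prkag2, by 0.43 and 0.95, named because they were the exceptions. Sumf1, which encodes the activator of sulfatases, went from 23.9 ± 0.397 FPKM in control to 77.9 ± 7.55 FPKM at day 16 (SD, n = 3), a change of 1.66.

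The late part of these courses depended on the scaling of libraries. From day 8 to day 16, 16 lysosomal targets rose and 1 fell, but after rescaling each library to the same FPKM sum 7 rose and 4 fell. For all genes the counts in that interval were 1412 higher and 1291 lower, and 731 higher and 2458 lower after rescaling. From day 2 to day 8 they were 1559 and 1642, and 2081 and 1169 after rescaling. On the line over days 2 to 16 they were 2377 and 2587, and 1573 and 3256 after rescaling, which moved the median of all genes to -0.16 from day 8 to day 16 and to -0.14 on the line.

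**Figure D4:**
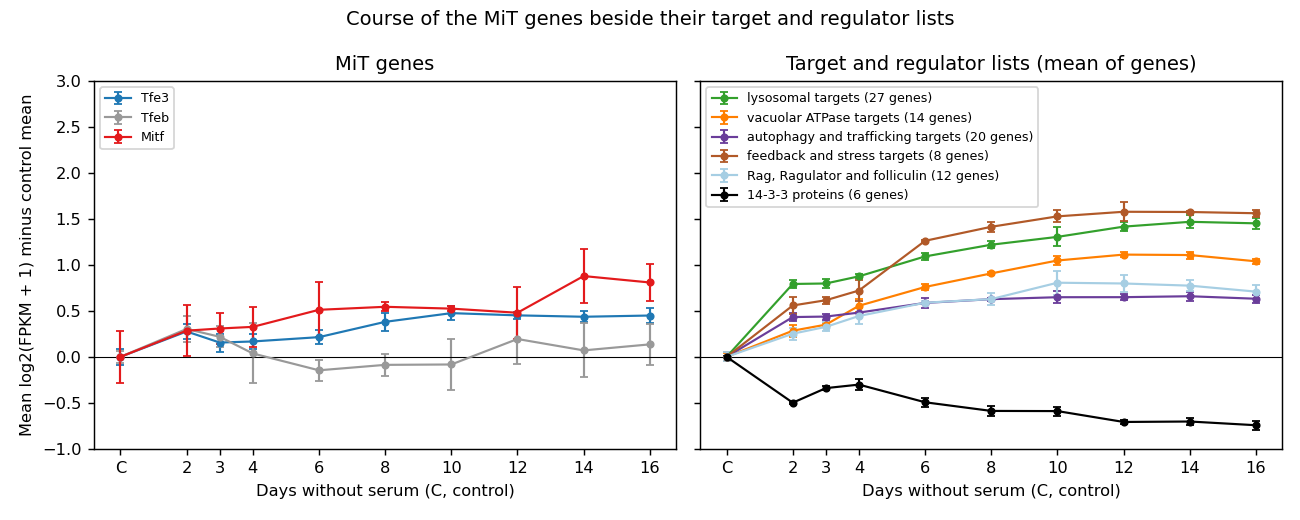
Mean log2(FPKM + 1) minus the control mean (y axis) against days without serum (x axis), for each MiT gene (left) and for the mean over the tested genes of target and regulator lists (right); bars are SD over 3 libraries. The lysosomal target list lies above all 3 MiT genes from day 2 on, and the 14-3-3 list lies below 0 on each starved day.

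Of 12 genes that feed back on MiT proteins or mark their stress response, 8 passed the filter, and all 8 rose by day 16 (median change 1.24). The rest averaged under 1 FPKM and were not tested. Over the alternatives the number called higher ranged from 7 to 9. The call on Rragd at day 16, with a limma adjusted p of 0.0078, was lost under 1 alternative (0.0619). The list overlaps the folliculin and Rag genes above. Gpnmb, a lysosomal glycoprotein controlled by MITF and TFE3, went from 8.83 ± 0.98 FPKM in control to 57.6 ± 2.19 FPKM at day 16 (SD, n = 3), a change of 2.58 ± 0.10 with a limma adjusted p of 9.44e-18. Ppargc1a, the coactivator gene that TFEB induces in starved liver, averaged under the filter and was not tested. Its mean was 0.388 FPKM in control, 0.969 at day 2, 0.933 at day 6 and 0.447 FPKM at day 16. The highest day 6 library reached 1.54 FPKM. Mlana, a melanosome gene and MITF target, was listed at 0 in all control, day 2 and day 3 libraries, and gave 14.1 ± 0.957 FPKM at day 8 and 40.0 ± 9.85 FPKM at day 16 (SD, n = 3).

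Most other pigment genes were at or near 0. Of 12 melanocyte genes in the table only Mlana and Rab27a passed the filter, Sox10 and Slc45a2 were listed at 0 in all libraries, and Tyr was listed at 0 at control and days 2, 8 and 16. The 6 melanocyte markers summed to between 0 and 0.1 FPKM in control and between 32.5 and 51.5 FPKM at day 16, nearly all from Mlana. Macrophage and osteoclast markers, whose cells also use Mitf, summed to 7.11 to 7.56 FPKM in control, 0.471 to 1.55 FPKM at day 6 and 1.89 to 2.65 FPKM at day 16. That sum was lower than control when starved but higher at day 16 than at day 6, with 6 of 13 at 0 in all libraries and none at a mean of 1 FPKM, and its part in the result on Mitf was not tested. Endothelial markers summed to under 1 FPKM in each library. Epithelial markers summed to 10.7 to 12.9 FPKM in control and 62.2 to 75.8 FPKM at day 16, led by Krt8, and their part in the results was not tested. Of 11 fibroblast markers, 7 had a mean of 1 FPKM or more, and from day 2 to day 8, 2 of these rose and 5 fell. In that interval 17.4% of all genes rose and 18.4% fell. The list summed to 15711 to 18050 FPKM in control, 25985 to 31114 FPKM at day 2 and 12920 to 14171 FPKM at day 16. The part of this change in the results was not tested, and the sum was at least 12920 FPKM in each library. Col1a2, a collagen gene that fibroblasts use, was nevertheless listed at 0 throughout, so a 0 in this table need not mean that a gene was silent.

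A list of other E-box factors and of regulators of MiT transcription, which includes Foxo, Creb and Klf genes, held 18 tested genes. Of these 11 rose and 3 fell at day 16, against 32.4% and 35% of all genes. Usf1 and Usf2 bind the CACGTG core as well. Usf2 rose by 0.49 ± 0.06, with a limma adjusted p of 1.46e-07, and Usf1 changed by -0.05 ± 0.08, with a limma adjusted p of 0.587. Zkscan3, a repressor of autophagy genes that opposes TFEB, rose by 0.26 ± 0.09, with a limma adjusted p of 0.0172, which was lost without control replicate 2 (0.0541) or day 16 replicate 3 (0.105) and after rescaling to the same FPKM sum (0.0817). Myc, which competes for CLEAR sites, fell by 1.72 ± 0.17, with a limma adjusted p of 1.3e-09, from 13.4 ± 0.737 FPKM in control to 3.38 ± 0.430 FPKM at day 16 (SD, n = 3).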

How the data were processed

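RNA from 30 cultures was sequenced. Per the submitters' processing notes, TopHat2 2.1.1, Cufflinks and Cuffnorm 2.2.1 were used with genome build rn6. The authors deposited FPKM per gene symbol; their annotation, strand setting and scaling across libraries are not given in the sources used here. As only FPKM are given, sequencing depth is unknown, and no counting interval is printed. Groups follow the sample titles. From the deposited FPKM, log2(FPKM + 1) was computed, genes with a mean of at least 1 FPKM were kept, and limma 3.58.1 (R 4.3.3) was fitted with a mean-variance trend, over all 30 libraries for group contrasts and over 27 for the line on day. Tests were two-sided. The code was tested on simulated data. Differences between MiT genes were tested within libraries by permutation (100000 resamples for the course). The genes, lists and motifs were chosen with earlier results of these data known. Genes named are the MiT genes, up to 4 genes with the smallest p per list and comparison, and a set list of regulators and targets; exceptions of a list, Slc38a9, Mtor, Sumf1 and single markers were named after their values were seen. Of the list entries, 18 had no row in the table, so their expression was not analysed. Those with a promoter entry, such as Bloc1s3 and Dct, were still counted in the motif shares of the lists.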

Additional observations from a re-analysis of the deposited data

How the results depend on the processing

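Alternatives changed the pseudocount, the filter, the scaling, the trend, the block or the libraries used. Of 341 values for the MiT genes under these alternatives, 321 were counted as unchanged. For tests this means the same side of the threshold and, where there is one, the same direction. For counts of calls it means a number close to the main one. Replicates 2 and 3 only and leaving out replicate 1 use the same libraries, so some values are repeats. Calls against control numbered 7 rather than 13 with a mean of at least 5 FPKM, since Mitf was then not tested. They ranged from 8 to 13 over leaving out each replicate number and from 7 to 15 over all alternatives. With the sum of each library set to 1000000, Tfe3 changed by -0.095 from day 8 to day 16 and by 0.19 on the line (adjusted p 0.0673). The line of Tfeb was 0.0075 without replicate 2 (lowest -0.10 over the replicate numbers) and 0.071 without day 2. The adjusted p over all groups ranged with a replicate left out from 0.00359 to 0.122 for Mitf and from 0.0265 to 0.751 for Tfeb. The course of Mitf minus Tfe3 was 0.41 with a pseudocount of 0.1 (adjusted permutation p 0.0360) and -0.011 with 5, where the comparison with control gave -0.055. The course of Tfe3 minus Tfeb was 0.46 with replicates 2 and 3 only and ranged from 0.24 to 0.46, and Mitf minus Tfeb from 0.51 to 0.69, with a replicate left out. Control against day 2 only gave -0.027 for Tfe3 minus Tfeb and -0.019 for Mitf minus Tfeb. Usf1 changed sign at day 2 (0.042 and 0.049) and day 16 (0.061 and 0.066) under upper quartile scaling and quantile normalization. The cause of these shifts was not tested.

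Same-numbered libraries tended to deviate together, most of all those of replicate 1. The mean correlation of their deviations was 0.36, 0.09 and 0.17 in replicates 1, 2 and 3, against -0.10 between different numbers. Single pairs of the same number went as low as -0.21, and 23 of 30 libraries correlated best with their own number. With a replicate block, calls against control numbered 14, and Tfe3 changed by 0.45 at day 16 (limma adjusted p 4.34e-06). Of 54 values for other named genes, 43 kept direction and side of the threshold under all alternatives. On the line over days 2 to 16, time point means gave 1723 genes called lower, against 2587. Because depth is unknown, the precision of low values such as those of Mitf could not be set from counts.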
